A study of Homo sapiens with 4 samples.

Results

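The distal long arm of chromosome 8 carries MYC, a growth-promoting transcription factor gene, followed by the noncoding genes PVT1 and CCDC26, in a long stretch of other 8q24 genes. The elements described here are the active enhancers and promoters of the deposited contact table that lie on chromosome 8 and start at 120 Mb or beyond, counted as distinct intervals. There were 356 of them, 262 enhancers and 94 promoters, among 33948 elements in all. The region was chosen by position, with results of the same genotype comparison already known, so the genotype differences below are a description and have no test. The last element left out, a DEPTOR enhancer, met 1 RNA in R320* and 0 in WT; the first one taken in, an enhancer at MRPL13, met 4 and 3.

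GRID-seq was run on K562, an established line of human leukaemia cells with a BCR-ABL1 fusion, in cells with RUNX1 R320* and in cells with wild-type RUNX1 (WT). RUNX1 is a transcription factor of blood cells, and R320* puts a stop codon in its C-terminal part. There were 2 libraries per genotype, with 1 protocol of growth and crosslinking given for all 4, and the deposited table gives 1 score per connection and genotype. The labels leave unsaid if R320* is a single clone, and if the paired libraries were made from separate cultures. Of 26 erythroid genes, 12 were listed as RNAs in the table, against 2 of 10 lymphoid genes, and the fetal globin RNA HBG2 had 196 connections in R320* and 154 in WT.

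GRID-seq ligates an RNA to the chromatin it lies next to, so each connection names an RNA and an element it was found at. Most RNA found at a distant element is nascent RNA of a gene on the same chromosome, while a few abundant nuclear RNAs are found on many chromosomes. MYC in blood cells is controlled by enhancers spread over a wide stretch of 8q24, and PVT1 and CCDC26 lie in that stretch. The table calls a connection local (at the RNA's own gene), cis (same chromosome) or trans (another chromosome). A score in it is either 0 or above 1.2, so a 0 is read here as not listed and never as a measured zero. With pooled scores no replicate error exists, sequencing depth is unknown, and a connection made in few cells cannot be told apart from a weak one made in many.

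The distal 8q elements met many more RNAs in R320* than in WT. They received 1131 connections in R320* and 630 in WT, a ratio of 1.80, and 449 of these were in both. Of 1312 connections, 52.0% were listed in R320* only and 13.8% in WT only. Over the whole table those shares were 28.5% and 26.3%. On the rest of chromosome 8 they were 28.7% and 24.9%. Each kind of connection leaned the same way. Local connections numbered 56 in R320* and 39 in WT, cis connections 773 and 498, and trans connections 302 and 93.

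The lean was widest in trans. Of 377 trans connections, 75.3% were in R320* only, 19.9% in WT only and 4.77% in both. Over all elements 41.5% of trans connections were in R320* only and 47% in WT only. The rest of chromosome 8 had 264 trans connections in R320* and 408 in WT, the opposite order to the distal part. Of the cis connections onto distal 8q, 43.3% were in R320* only and 12.1% in WT only, against 26.4% and 22.1% in the whole table. On the rest of chromosome 8 the cis shares were 28.2% and 18.8%, so cis leaned to R320* there too, by less. Of the local ones, 30.4% were in R320* only and 0 of 56 in WT only, against 8.65% and 10.3%.

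**Figure D1:**
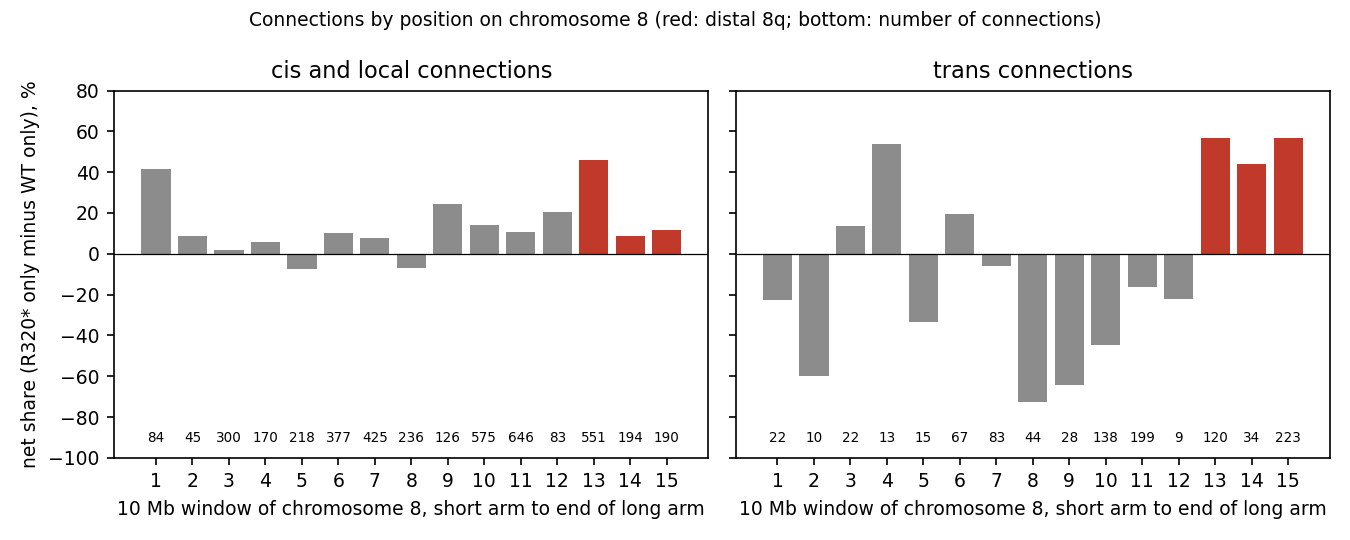
Net share of connections (R320* only minus WT only, in percent of all) in 10 Mb windows of chromosome 8, for cis and local connections (left) and trans connections (right). Red bars are the distal 8q windows and the numbers at the bottom are connections per window. The 3 trans windows of distal 8q stand at 56.7%, 44.1% and 56.5%, beside -22.2% in the window before them, which holds 9 connections. Trans windows elsewhere run from -72.7% (70 to 80 Mb) to 53.8% (30 to 40 Mb, 13 connections). Cis and local windows stand at 45.9%, 8.76% and 11.6% in distal 8q. Elsewhere they run from -7.34% (40 to 50 Mb) to 41.7% (0 to 10 Mb).

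In windows of 5 Mb, the cis numbers varied with position more than the trans ones. In the first 5 Mb from 120 Mb, the stretch of ZHX1, ATAD2 and MTSS1, the elements had 374 cis and local connections in R320* and 153 in WT. In the next 5 Mb, which hold MYC, they had 132 and 100. From 130 to 135 Mb the numbers were 152 and 137, and from 140 to 145 Mb, the gene-dense end of the arm, 166 and 144. The net share, R320* only minus WT only, was thus 55.1% in the first of these windows and 21.3%, 8.02% and 11.6% in the others. Of 328 windows of this size in the table with at least 100 cis and local connections, the first ranked 2 by this share and the others 33, 139 and 94.

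Trans connections had a high net share in every 5 Mb window that held more than 1 of them. It was 59.7% in the first 5 Mb (51 in R320*, 14 in WT), 53.4% in the window of MYC (46 and 15), 44.1% from 130 to 135 Mb (25 and 10) and 56.3% from 140 to 145 Mb (179 and 54). The last window ranked 1 among the 49 windows of the table with at least 100 trans connections. The stretch from 135 to 140 Mb held only 3 elements, with 5 connections in R320* and 3 in WT, all of them cis. In windows of 2 Mb, many with few connections, the trans net share varied more. It ran from 9.09% (130 to 132 Mb, 6 in R320* and 5 in WT) to 81.8% (126 to 128 Mb, 21 and 3). The cis and local net share ran from -6.67% (132 to 134 Mb) to 60.1% (122 to 124 Mb) in these windows.

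Elements were assigned to their nearest gene as the deposited table gives it, which was MYC for 3 of them. The one over the MYC promoter (chromosome 8, 127733709 to 127737685, hg38) met 8 RNAs in R320* and 3 in WT. The 3 RNAs of WT were met in R320* too. PVT1 RNA scored 1.94 in R320* and 1.77 in WT, CCDC26 RNA 1.49 and 1.34, and the RNA of FAM49B, an inhibitor of RAC1 signalling now named CYRIB, 1.43 and 1.38. So the same-chromosome partners of the MYC promoter were the same in both genotypes, with scores close to each other. The 5 others were trans and listed in R320* only: NEAT1, an RNA that builds paraspeckles, at 1.40, and 4 RNAs of the beta-globin locus on chromosome 11.

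Those 4 RNAs were the embryonic globin HBE1 at 1.67, the fetal globin HBG2 at 1.65, the olfactory receptor gene OR51B5 at 1.72 and AC104389.4 at 1.61. An enhancer at the end of MYC (127740401 to 127744340) met the same 8 and 3 RNAs. There PVT1 RNA scored 1.95 in R320* and 1.87 in WT, CCDC26 RNA 1.37 and 1.31, and FAM49B RNA 1.25 and 1.51. HBE1 scored 1.48 and HBG2 1.47 in R320*, and neither was listed in WT. The score at the promoter minus that at the enhancer was 0.182 for HBG2, 0.182 for HBE1, 0.183 for OR51B5 and 0.182 for AC104389.4. The 4 scores ran in parallel, and whether these RNAs share reads was not tested. Each is counted by itself in the numbers given here. Counted as 1 RNA, they leave 5 RNAs at the MYC promoter in R320* and 3 in WT, and 287 trans connections onto distal 8q in R320* and 93 in WT. HBG2 also has a near-identical copy, HBG1, and reads of both may be split between them.

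**Figure D2:**
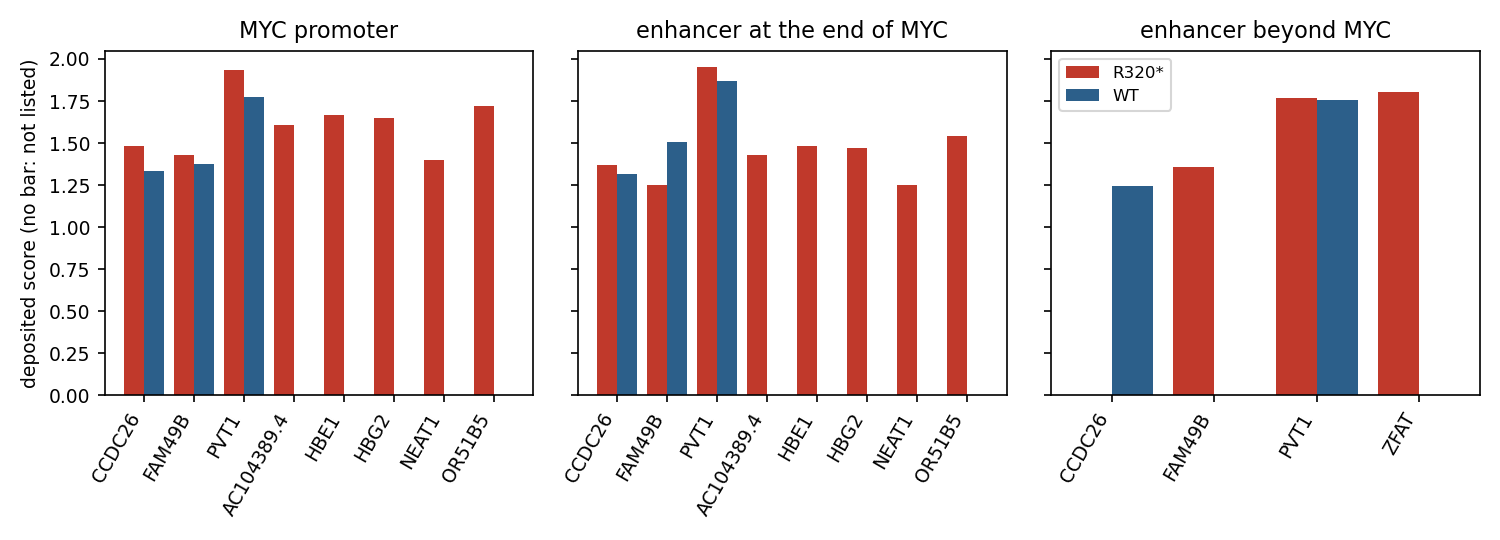
Deposited scores of every RNA listed at the 3 elements whose nearest gene is MYC, in R320* (red) and WT (blue). A missing bar is a connection that is not listed, and listed scores begin above 1.2. PVT1 RNA has a bar in both genotypes at all 3 elements, while the globin locus RNAs and NEAT1 have red bars only.

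The third MYC element, an enhancer 16.5 kb beyond the gene (127759464 to 127761091), met 3 RNAs in R320* and 2 in WT. PVT1 RNA scored 1.77 in R320* and 1.76 in WT. FAM49B RNA (1.36) and the RNA of ZFAT (1.80), a zinc finger gene, were listed in R320* only, and CCDC26 RNA (1.24) in WT only. Over the 3 elements, R320* had 9 cis and 10 trans connections and WT 8 and 0. With the globin locus RNAs counted as 1, the trans connections numbered 4 in R320* and 0 in WT. MYC itself was not among the 2637 RNAs of the table, so no contact of MYC RNA can be described.

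The globin locus RNAs touched few other elements of the region. HBG2, HBE1 and OR51B5 each had 5 connections in R320* and 0 in WT, and AC104389.4 had 8 and 0. All 4 met the same 5 elements. Besides the MYC promoter and the enhancer beside it, these were an enhancer at CASC11, an enhancer at PLEC and one at SLC45A4. The CASC11 enhancer (127725927 to 127728946) lies a short way before MYC, nearer to it than the third MYC element. It met 7 RNAs in R320* and 1 in WT, 4 and 0 of them trans. There HBG2 scored 1.28 and HBE1 1.29. At the SLC45A4 enhancer (141241767 to 141243310) they scored 1.71 and 1.72. In the whole table the trans connections of HBG2 numbered 108 in R320* and 66 in WT, so more trans contacts in R320* were not limited to distal 8q.

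The 11 elements whose nearest gene is PVT1 differed little between genotypes. They received 24 connections in R320* and 21 in WT, 14 and 17 of them cis or local and 10 and 4 trans. R320* had the higher number of RNAs at 4 of them, WT at 2, and 5 were even. The one with most RNAs lay beyond the gene (128197251 to 128198062) and met 4 in R320* and 5 in WT. Its PVT1 score was 2.05 in R320* and 2.26 in WT, its CCDC26 score 1.36 and 1.60, and its score for ASAP1, an ARF GTPase-activating protein gene, 1.48 and 1.70. All 3 were thus lower in R320*, and FAM49B RNA (1.63 and 1.31) was higher.

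At the wide enhancer inside PVT1 (127883704 to 127930115, 46412 bp), PVT1 RNA had its local connection, with 1.26 in R320* and 1.40 in WT. An enhancer between MYC and PVT1 (127776220 to 127777065) met 3 RNAs in each genotype. PVT1 RNA scored 1.97 there in R320* and 2.02 in WT, FAM49B RNA 1.49 and 1.55, while CCDC26 RNA (1.30) was listed in WT only and ZFAT RNA (1.22) in R320* only. The PVT1 promoter itself met 1 RNA in each genotype.

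The 10 elements whose nearest gene is CCDC26, 9 enhancers and 1 promoter, received 15 connections in R320* and 11 in WT. Of these 8 and 5 were cis or local and 7 and 6 trans. At an enhancer inside the gene (129524964 to 129525272), CCDC26 RNA had its own local connection, with 1.202 in R320* and 1.33 in WT. That element met 4 RNAs in R320* and 5 in WT, of which 2 were shared. In WT it listed the trans RNAs NYAP2 at 2.04 and ENTPD3-AS1 at 1.81, neither of which was listed in R320*. The promoter element (129683412 to 129683991) met 3 RNAs in R320* and 1 in WT, and PVT1 RNA scored 1.88 there in R320* and 1.45 in WT. The widest element, an enhancer of 52252 bp inside CCDC26, met 2 trans RNAs in R320* and 0 in WT.

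Within 3 Mb of MYC on either side lay 113 elements with 306 connections in R320* and 199 in WT. Within 1 Mb there were 30 elements with 82 and 55. In this inner part cis and local connections numbered 55 in R320* and 50 in WT, and trans ones 27 and 5. Among the 27 are 3 each of the globin locus RNAs HBE1, HBG2, OR51B5 and AC104389.4, each RNA counted by itself. The RNAs seen most often within 3 Mb were those of FAM49B (38 in R320*, 31 in WT), NSMCE2 (38 and 29), PVT1 (34 and 26) and ASAP1 (28 and 30). NSMCE2 encodes a SUMO ligase of the SMC5/6 complex. Without the 8 RNAs of RefSeq-placed region genes that WT did not list anywhere, described further on, the numbers within 3 Mb were 263 in R320* and 199 in WT.

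**Figure D3:**
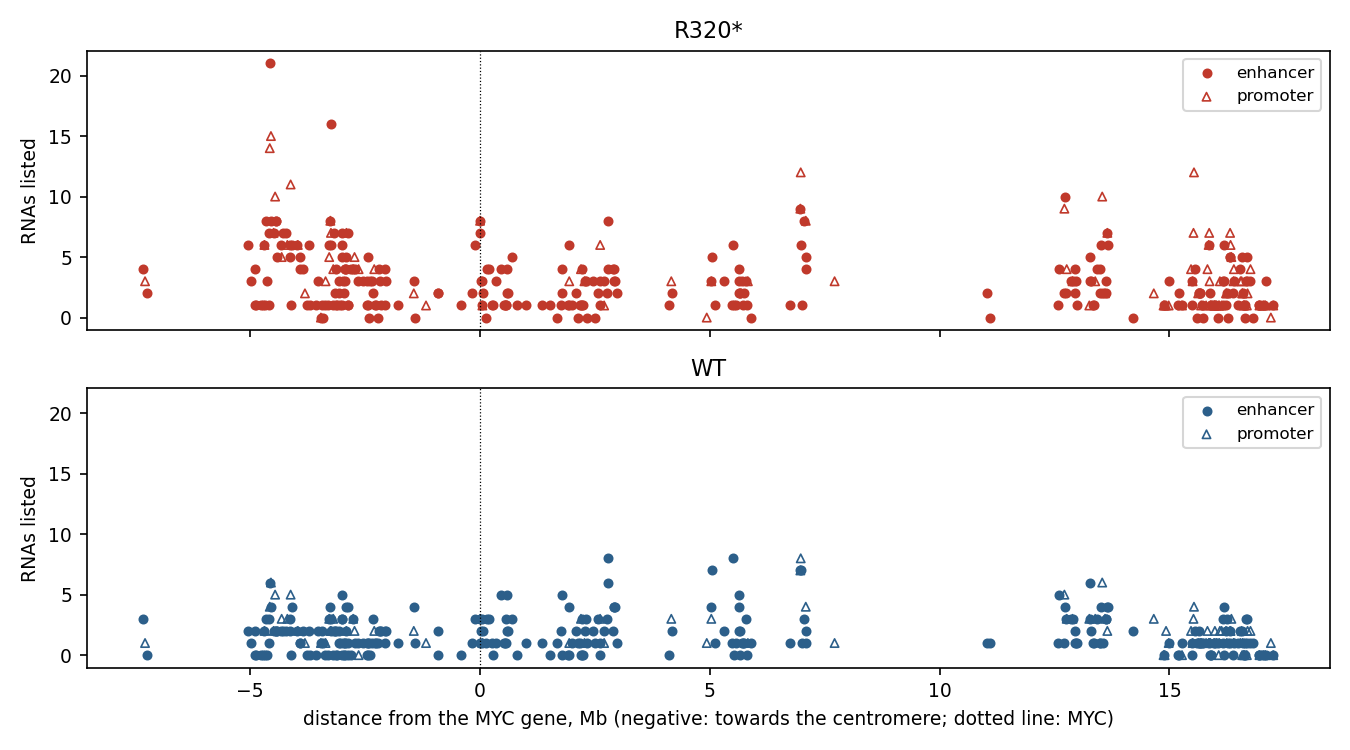
Number of RNAs listed at each of the 356 distal 8q elements in R320* (top) and WT (bottom) against the distance from MYC in Mb; filled circles are enhancers and open triangles promoters. In R320* the highest element reaches 21 RNAs and lies before MYC, while no element reaches 10 in WT.

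Much of the difference in cis came from RNAs that WT did not list anywhere. Of 29 RNAs in the table whose genes RefSeq places in the region, 21 were listed in both genotypes, 8 in R320* only and 0 in WT only. Over all RNAs 8.61% were in R320* only and 10.4% in WT only. The 8 were TATDN1, WDYHV1, FAM83A, SQLE, ZHX1, MTBP, PTP4A3 and ADGRB1, and all but ADGRB1 touched distal 8q elements. Together they made 198 connections, 14 local and 184 cis. Without them the cis net share was 13.1% in place of 31.3%, and local connections numbered 42 in R320* and 39 in WT. On the rest of chromosome 8, with all RNAs counted, the cis net share was 9.40%. The noncoding AC016074.2, which the RefSeq table did not place, was also listed in R320* only, with 2 local connections here. Without it too, local connections numbered 40 in R320* and 39 in WT. The trans net share, 55.4%, has no connection of theirs in it. In the first 5 Mb the cis and local numbers without them were 198 in R320* and 153 in WT.

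The 5 largest of the 8 lie within 2 Mb of each other, from FAM83A to SQLE. TATDN1, a putative deoxyribonuclease gene (124488494 to 124539088), made 53 connections in R320* and 0 in WT, with a median score of 1.88. WDYHV1, a protein amidase gene now named NTAQ1, made 41, with a median of 2.33. FAM83A, a signalling scaffold gene, made 34 and SQLE, the squalene epoxidase of cholesterol synthesis, 31. ZHX1, a zinc finger and homeobox repressor gene, made 29. Their scores were not those of connections at the limit of listing. TATDN1 RNA reached 3.79 at an enhancer at RNF139, SQLE RNA 3.87 at an enhancer beside WASHC5, and ZHX1 RNA 3.92 at an enhancer next to its own gene.

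Their elements were not empty in WT. Of the elements that TATDN1 RNA touched, 49 of 53 were listed in WT with other RNAs, and for ZHX1 29 of 29. Neighbouring genes were listed in both genotypes. ATAD2, a bromodomain ATPase gene that lies between ZHX1 and WDYHV1, had 52 connections in R320* and 46 in WT, of which 41 were shared. TBC1D31, a gene of centriolar satellites, had 41 and 30, with 29 shared. MTSS1 and LINC00964 each had 6 in R320* and 6 in WT, all shared.

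**Figure D4:**
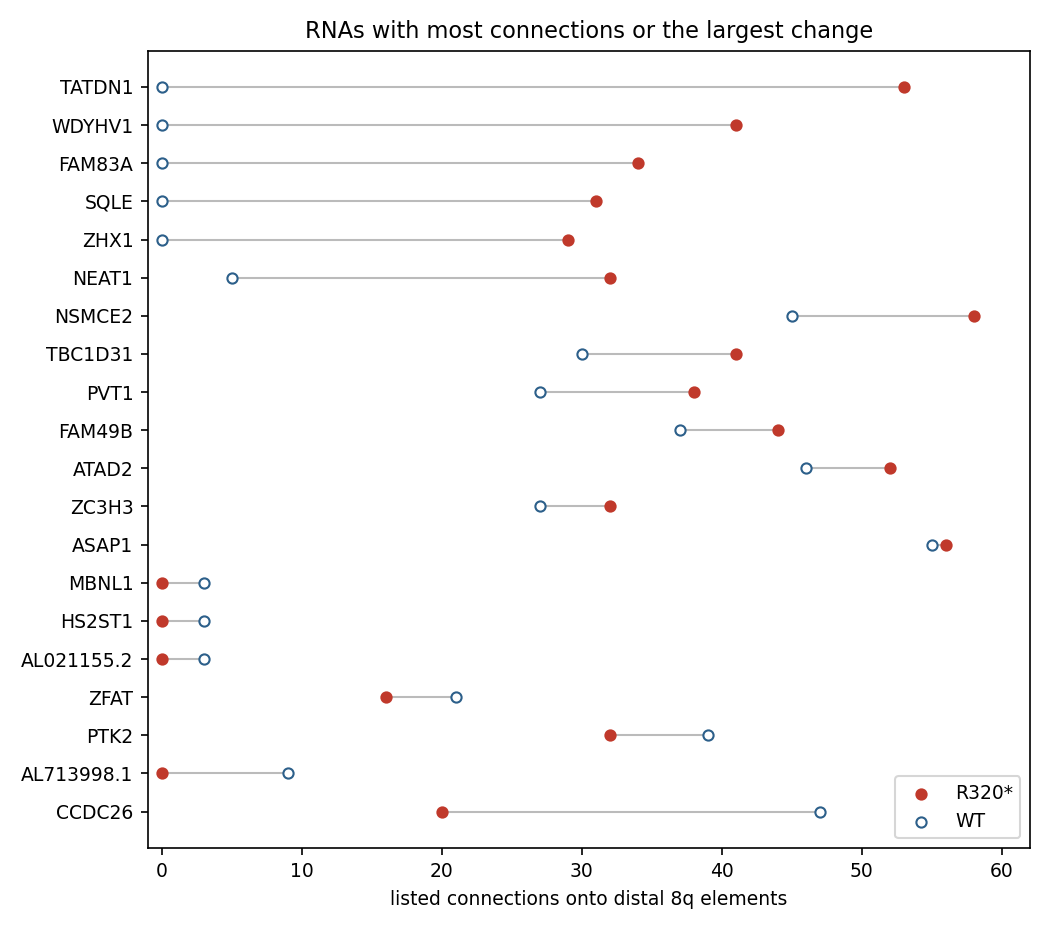
Listed connections onto distal 8q elements in R320* (red, filled) and WT (blue, open) for the RNAs with most connections or the largest difference between genotypes. TATDN1, WDYHV1, FAM83A, SQLE and ZHX1 stand at 0 in WT, and CCDC26 has the largest difference the other way, 20 against 47.

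In all 129 RNAs touched distal 8q, 98 of them more often in R320*, 26 less often and 5 equally. These RNAs were taken because they touched the region, so the split goes with its higher number of connections in R320*. The same split over all 2637 RNAs of the table was not counted. They were 105 protein-coding and 24 long noncoding RNAs, 39 from chromosome 8 and 90 from elsewhere. Of the chromosome 8 RNAs listed in both genotypes with at least 10 connections here, 19 of 22 had more in R320* and 3 had fewer. The 3 were CCDC26 (20 in R320*, 47 in WT), PTK2 (32 and 39), the focal adhesion kinase gene, and ZFAT (16 and 21).

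Other leading visitors were listed in both genotypes, with differences of various sizes. NSMCE2 had 58 connections in R320* and 45 in WT, ASAP1 56 and 55, FAM49B 44 and 37, and ZC3H3, a gene of nuclear mRNA processing, 32 and 27. Most of these were shared: 41 for NSMCE2, 40 for ASAP1 and 31 for FAM49B. EFR3A, whose protein anchors a lipid kinase at the plasma membrane, had 26 and 18, and PHF20L1, a methyl-lysine reader gene, 25 and 19. TAF2, a subunit of TFIID whose gene lies just before the region, had 21 and 7. Each of these RNAs thus had more connections in R320*, by 1 for ASAP1 and by 14 for TAF2.

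CCDC26 RNA had fewer connections in R320* both near its gene and far from it. Within 1 Mb of the gene it had 5 in R320* and 12 in WT, and within 5 Mb 16 and 35. In the 5 Mb before 130 Mb, the window that holds the gene, it had 14 connections in R320* and 18 in WT, of which 13 were shared. From 130 to 135 Mb it had 4 and 19, and from 140 to 145 Mb 1 and 6. Its shared scores were low in both genotypes, with a median of 1.33 in R320* and 1.49 in WT. In the whole table its trans connections numbered 24 in R320* and 173 in WT.

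PVT1 RNA had more connections in R320*. It had 38 connections in R320* and 27 in WT onto distal 8q, and all 27 were listed in R320* as well. In the window of MYC it had 29 and 24, in the first 5 Mb 4 and 2, and from 130 to 135 Mb 4 and 1. Its reach went 12.2 Mb beyond the gene in R320* and 2.42 Mb in WT, the longer reach resting on 1 connection past 140 Mb.

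By the lists of neighbouring genes, 8q24.1 genes stood out in the number of connections. Of 24, 9 touched the region as RNAs, with 263 connections in R320* and 85 in WT; 7 of the 9 leaned to R320*, 2 were even and 0 leaned to WT. These include 5 of the RNAs that WT did not list. Of 28 neighbours of MYC, 7 did so, with 273 and 229, and 6 had more and 1, CCDC26, fewer. Among the 6 is SQLE, with 31 and 0, which WT did not list either. Of 92 genes of 8q24.2 and 8q24.3, 10 did so, with 192 and 175, 8 with more and 2 with fewer. Among the 8 is PTP4A3, with 6 and 0, likewise not listed in WT. The median difference was 11, 8 and 2 connections in these lists, beside 2 over all 129 RNAs. Of those 129, 98 leaned to R320*, 26 leaned to WT and 5 were even. A lean of most members to R320* thus did not set these lists apart. Of the erythroid list, HBG2 and HBE1 were among the RNAs that touched the region. Of 9 nuclear noncoding RNAs, 4 did so, PVT1, NEAT1, MALAT1 and SNHG1, with 92 connections in R320* and 35 in WT. Of the ABL1 and BCR segment genes and of the lymphoid genes, 0 did.

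Of the 90 trans RNAs, 71 were listed here in R320* and 38 in WT, with 19 in both. NEAT1 led with 32 connections in R320* and 5 in WT, 0 of them shared. MALAT1, an RNA of nuclear speckles, had 21 and 3, and the noncoding LINC02476 17 and 2. LMAN1, a cargo receptor gene of the early secretory pathway, had 17 and 10 with 8 shared, and AC097528.1 had 11 and 2. These 5 made up 32.5% of the trans connections in R320* and 23.7% in WT.

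Over all elements outside distal 8q, the rest of chromosome 8 included, the same RNAs were closer to even. NEAT1 had 1089 trans connections there in R320* and 781 in WT, MALAT1 684 and 663, LINC02476 468 and 509, LMAN1 444 and 530, and AC097528.1 478 and 409. On the rest of chromosome 8, NEAT1 had 16 in R320* and 16 in WT and LMAN1 8 and 10. MALAT1 with 26 and 13, LINC02476 with 24 and 13 and AC097528.1 with 15 and 11 had more in R320* there too. All 90 trans visitors together had 7515 trans connections outside the region in R320* and 7976 in WT, and 217 and 212 on the rest of chromosome 8. These RNAs were taken because they touched the region, and no test of the contrast between places was possible with 1 score per genotype. NEAT1 and MALAT1 scores here were low, with medians of 1.41 and 1.28 in R320*, near the limit of 1.2. The distal end from 140 Mb held 22 of the 32 NEAT1 connections in R320* and 1 of 5 in WT.

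Some trans connections had high scores in 1 genotype. UBA6-AS1, a noncoding RNA of chromosome 4 that WT did not list anywhere, scored 3.56 and 3.42 in R320* at a pair of neighbouring ST3GAL1 enhancers. In WT, ELF2 RNA scored 2.75 at a ZNF16 promoter, and it was not listed there in R320*. The noncoding AL713998.1 had 0 connections here in R320* and 9 in WT. AL021155.2, MBNL1 and HS2ST1, with 3 each, were also in WT only. High single scores thus occurred on both sides, although the numbers leaned to R320*.

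The 4 elements with most RNAs in R320* lay before MYC. An enhancer at AC068228.3 (123164064 to 123174846, 10783 bp) met 21 RNAs in R320* and 6 in WT, with 4 in both. Among them FAM83A RNA (3.40), ZHX1 RNA (2.42) and WDYHV1 RNA (2.36) were listed in R320* only, while TBC1D31 RNA (2.83 in R320*, 2.78 in WT), ATAD2 RNA (2.63 and 2.27) and TAF2 RNA (2.14 and 2.23) were in both. Its trans RNAs numbered 8 in R320* and 1 in WT. A promoter at the same gene (123156783 to 123159184) met 14 and 4, and a FAM83A promoter (123178282 to 123185044) 15 and 6. These lie side by side and share RNAs, so they are not independent.

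An enhancer inside RNF139 (124480490 to 124481067) met 16 RNAs in R320* and 3 in WT, and all 3 of WT were also in R320*. TATDN1 RNA scored 3.79, WDYHV1 RNA 2.83 and SQLE RNA 2.42 there in R320* only. ATAD2 RNA scored 2.52 in R320* and 2.49 in WT, and NSMCE2 RNA 2.21 and 2.32. At the distal end, a ZNF696 promoter (143276274 to 143292881) met 12 RNAs in R320* and 4 in WT, 10 and 2 of them trans. Its trans RNAs in R320* included those of MYB, a progenitor transcription factor gene, at 2.50 and of KMT2C, a histone methyltransferase gene, at 1.95. A promoter near AC087045.2 (134719801 to 134721010) met 12 and 8, with 7 in both.

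Differences the other way were small. The largest was 2 fewer RNAs in R320*, shared by 6 elements. They include enhancers at AC100822.1 (1 in R320*, 3 in WT), AC090987.1 (4 and 6), PHF20L1 (5 and 7) and NDRG1 (6 and 8), a stress-response gene. Among all 356 elements, R320* had the higher number at 230 (64.6%) and WT at 55 (15.4%), and 71 were even. Over all elements of the table, R320* was higher at 36.6% and WT at 32.4%. Elements listed in R320* only numbered 70, those in WT only 22, and 264 were in both. Among the 33948 elements of the table these numbers were 3902, 4075 and 25971. Hubs with at least 10 RNAs numbered 10 in R320* (2.81%) and 0 in WT, against 1.72% and 1.49% of all elements.

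Of the 198 distal 8q elements listed in both genotypes with a mean of at least 2 RNAs, 103 (52.0%) had an R320* number 2-fold or more above that of WT, and 2 (1.01%) one 2-fold or more below it. Over all elements of the table the shares were 12.4% and 9.6%. An element with 1 RNA in 1 genotype passed the minimum only if it was also past 2-fold, like the MTBP promoter (3 in R320*, 1 in WT). In WT 119 of the 356 elements met 1 RNA, so part of the count follows from the minimum. Without it, 120 of the 264 elements listed in both genotypes were 2-fold or more above and 9 were 2-fold or more below. With only RNAs listed in both genotypes, 55 of 182 were 2-fold or more above and 4 were 2-fold or more below. The shares over all elements of the table were not counted under these other settings.

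Promoters and enhancers leaned the same way. Enhancers received 766 connections in R320* and 448 in WT, promoters 365 and 182. Per element that was 2.92 ± 2.55 and 1.71 ± 1.57 RNAs for enhancers, and 3.88 ± 3.27 and 1.94 ± 1.59 for promoters (SD over 262 and 94 elements, not over cultures). In trans, promoters had 114 and 28 and enhancers 188 and 65. In the rest of the table an enhancer met 2.34 RNAs in R320* and 2.30 in WT, and a promoter 2.88 and 2.76, so distal 8q elements were below the rest in WT and above it in R320*. In the first 5 Mb the net share was 52.8% for promoters and 57.0% for enhancers. In the window of MYC it was 46.7% and 27.5%, from 130 to 135 Mb 28.1% and 8.54%, and from 140 to 145 Mb 40.8% and 31.6%, so it was higher for promoters in 3 of these 4 windows.

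The elements themselves were much like those elsewhere. Their median length was 1926 bp, against 1867 bp in the rest of the table, and 26.4% were promoters, against 29.7%. Inside a gene lay 70.5%, against 70.0%. Longer elements met more RNAs in R320*: 3.73 ± 3.15 over 3 kb and 2.70 ± 2.41 under 1 kb, while in WT the numbers were 1.90 ± 1.54 and 1.71 ± 1.77 (SD over 135 and 121 elements).

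Where a connection was in both genotypes its score hardly differed. Over the 449 shared connections the median was 1.68 in R320* and 1.63 in WT, and the median difference 0.0330 (SD 0.217), beside 0.0394 in the whole table. Centred on that table median the difference was -0.00641, so its sign rests on the scaling. Of the shared connections, 254 were higher in R320* and 195 lower. A difference of at least 0.5 was seen in 9 higher and 2 lower ones of the 449, beside 3.55% and 2.07% in the whole table. On the rest of chromosome 8 the shared medians were higher, 1.95 in R320* and 1.87 in WT.

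Taking 1 connection per RNA, the 4 largest differences upward were TAF2 RNA at an MRPL13 enhancer (2.34 in R320*, 1.23 in WT), EFR3A RNA at an AC090987.1 enhancer (2.61 and 1.84), PHF20L1 RNA at a ST3GAL1 enhancer (1.98 and 1.25) and TBC1D31 RNA at an AC016405.3 enhancer (2.03 and 1.41). The 4 largest downward were EFR3A RNA at an ASAP1 enhancer (1.27 and 1.98), EIF3H RNA at an AC135166.1 enhancer (1.204 and 1.71), TBC1D31 RNA at a FAM91A1 enhancer (1.89 and 2.37) and FAM49B RNA at an ASAP1 enhancer (1.67 and 2.10). EFR3A and TBC1D31 stand on both sides, so the scores of 1 RNA differed in both directions.

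**Figure D5:**
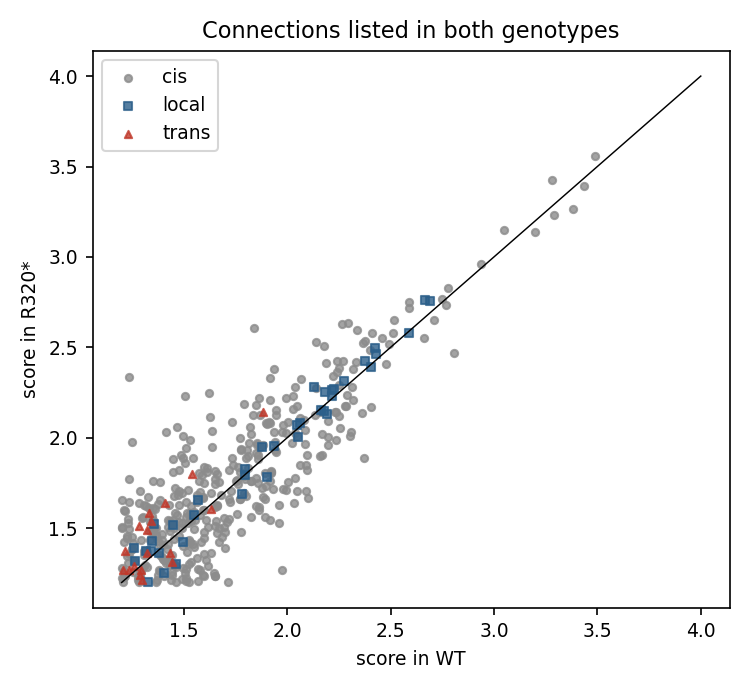
Score in R320* against score in WT for the 449 connections onto distal 8q listed in both genotypes, coloured by kind, with the line of equal scores. Points lie on both sides of the line, 254 above it and 195 below it, beside 30547 and 21542 of the 52089 shared connections of the whole table.

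The share of connections in both genotypes was lower at longer distances from the RNA's gene. Under 100 kb, 71.2% of 205 cis and local connections were in both genotypes, and 94.2% of 155 once the RNAs of region genes not listed in WT were left out. From 100 kb to 1 Mb it was 47.7% (73.3% without them), from 1 to 5 Mb 38.4% (42.0%) and beyond 5 Mb 17.3% (17.4%). With those RNAs left out, the numbers under 100 kb were 153 in R320* and 148 in WT, and beyond 5 Mb 95 and 60. In the whole table, connections under 100 kb numbered 15732 in R320* and 15933 in WT, and beyond 5 Mb 5020 and 4362. The share in both genotypes was 80.5% under 100 kb there and 13.3% beyond 5 Mb. So near contacts of RNAs listed in both genotypes were nearly the same here, and the ratio was higher for far ones (1.03 and 1.58). The whole table had the same order with distance, with ratios of 0.987 under 100 kb and 1.15 beyond 5 Mb.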

How the data were processed

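The submitters' processing notes name cutadapt 1.12, BWA, bedtools and the build hg38. The authors deposited 1 table of 115357 connections with a score per genotype, which equals 0 or lies above 1.2, and a difference of the scores; the making of the score, its scale and the pooling of the 2 libraries per genotype are not stated in the sources at hand. No values per library were used, so there is no test, p-value or replicate error, and depth is unknown. A connection was taken as listed where its score was above 0. Connections were counted per element, RNA and window, and net share is R320* only minus WT only in percent of all connections. A 2-fold difference between elements needed a mean of at least 2 RNAs and a listing in both genotypes. Gene positions come from the RefSeq table of GRCh38.p14, with 118 of 129 visiting RNAs matched, 4 by an older symbol; distance runs from the nearest end of the gene. Start positions, taken to count from 0 in the table, are printed from 1. Named RNAs had the most connections or the largest differences. Named elements had MYC, PVT1 or CCDC26 as nearest gene, or had the most RNAs or largest differences. Named connections had the largest score differences or, chosen after their values were seen, the highest scores in 1 genotype. Other RNAs and elements were named after their values were seen. The members, lists and rules were chosen with earlier results of these data known. The counting was tested on simulated data. Python 3.11.15, pandas 2.3.3 and numpy 2.4.6 were used. No sequence of these elements is printed. Results on some genes are not reported here.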

Additional observations from a re-analysis of the deposited data

How the results depend on the processing

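No paired analysis was possible because the deposited scores are pooled by genotype, and leaving out libraries could not be run for the same reason. Of 52 alternative values, 32 stayed within the 95% binomial interval of the main value, and 1 changed sign. A count of elements was instead taken as unmoved when it differed by no more than 1.5 times. For the median score difference the interval was that of the median, 0.0101 to 0.0507. These intervals cover counting only, and neighbouring connections of 1 RNA are not independent. Some of the 32 could not move, because the RNAs left out had no connection of that kind. They are the trans net share without CCDC26, PVT1 or NSMCE2 RNA, and the cis one without NEAT1, MALAT1 and LINC02476 RNA. The ratio of connections, 1.80 in the main setting, was 1.52 with the region begun 5 Mb later, 1.48 with only RNAs listed in both genotypes, 1.52 in the second block of elements (listed after the first in the table, with a shorter median length) and 2.01 for promoters alone. The cis net share, 31.3% in the main setting, was 13.2% begun 5 Mb later, 21.6% with connections of 1 RNA merged within 1 Mb, 39.2% with a minimum score of 1.5, 13.1% with only RNAs listed in both genotypes, 36.3% without CCDC26 RNA, and 35.4% and 23.9% in the first and second block. The trans net share, 55.4%, was 44.4% merged and 38.1% in the second block; without NEAT1, MALAT1 and LINC02476, an alternative added after seeing the data, it was 49.8%. Elements with at least 2-fold more RNAs in R320* numbered 103, or 55 with only RNAs listed in both genotypes; those with at least 2-fold fewer numbered 2, and 9 with no minimum, 0 with a mean of at least 3, 1 without CCDC26 RNA and 4 with only RNAs listed in both. The median score difference, 0.0330, was -0.00641 centred on the table median. The largest cis and local net share of a window was 60.1% with windows of 2 Mb, from 122 to 124 Mb. The ratio within 3 Mb of MYC, 1.54, was 1.40 within 2 Mb and 1.49 within 1 Mb. All these ratios and shares but the centred score difference kept their direction.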
